A study of Mus musculus with 6 samples.

Results

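Glycolysis splits glucose into pyruvate and lactate, and many of its steps are served by isoenzymes encoded by separate genes. Skeletal muscle uses its own forms of phosphofructokinase (Pfkm), phosphoglycerate mutase (Pgam2), enolase (Eno3) and glycogen phosphorylase (Pygm), whereas most other cells use Pfkl and Pfkp, Pgam1, Eno1 and Pygl. Bone-forming osteoblasts are known for a high rate of glycolysis. The 35 genes described here were chosen by name: the glucose carriers, the enzymes of glycolysis, the lactate carriers and the main enzymes of glycogen turnover. All 35 were found among the 25721 genes of the deposited comparison table, and all 35 passed the filter on low counts that left 15609 genes for testing. The symbol Aldoa stood on 2 rows, and the row with the higher summed count was kept.

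The RNA came from tibia cortex of wild-type mice, prepared by removing both bone ends and flushing out the marrow. One group of 3 libraries came from mice on a control diet without adenine and one group of 3 from mice on a diet with 0.2% adenine by weight, which injures kidney tubules and is given to model chronic kidney disease in mice. Mice of both groups were put on their diet when 8 weeks old, and their bones were taken 4 weeks later, at 12 weeks. Whether the 3 libraries of a diet stand for 3 mice is not stated in the labels; p-values therefore reflect only how these libraries varied, which may be technical. Total counts were 10549071 to 14598010 in the control libraries and 9977694 to 12044459 in the adenine libraries. Counts of single glycolytic genes ran from 12 to 173115.

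The libraries differed in how much skeletal muscle RNA they held, and many of the values below are set beside this level. A list of 21 muscle markers without glycolytic genes (sarcomere, calcium pump and oxygen-storage genes such as Acta1, Atp2a1 and Mb) summed to 72220, 27682 and 119181 CPM (counts scaled to a common library size) in control 1, 2 and 3 and to 4170, 106860 and 8474 CPM in adenine 1, 2 and 3. The mean log2 CPM of the markers tested was highest in control 3 (11.70), followed by adenine 2 (11.47), control 1 (10.96), control 2 (9.31), adenine 3 (7.75) and adenine 1 (6.85). The diets overlapped in this level, and 18 of the 20 markers tested had a negative log2 fold change without any of them passing edgeR's test, adjusted or not. Of the defining markers, Tnnc2 was listed at 0 in 3 libraries and did not reach 1 CPM in the others. In bulk tissue, less muscle on the bone and less RNA per muscle fibre cannot be told apart.

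In FPKM the muscle forms lay above the ubiquitous forms in all 6 libraries at each of the 4 steps compared. The size of that excess differed widely between libraries of the same diet. Levels are compared between genes in FPKM, the authors' values per kilobase of gene, so they depend on the gene lengths used. In counts, which are not divided by length, Pgam2 lay below Pgam1 in adenine 1 (514 against 772) and adenine 3 (933 against 1083). Eno3 likewise had fewer counts than Eno1 in adenine 1 (1331 against 2407). Pfkm (ENSMUSG00000033065, chromosome 15, 97990470 to 98030332 in the files' coordinates) stood at 340, 143 and 596 FPKM in control 1, 2 and 3 and at 32.3, 335 and 44.7 FPKM in adenine 1, 2 and 3. Its counterparts Pfkl (chromosome 10, 77822781 to 77845917) and Pfkp (chromosome 13, 6629804 to 6698813) kept to a narrow range. Pfkl was at 3.23, 4.98 and 4.17 FPKM in the control and 4.74, 3.74 and 3.77 FPKM in the adenine libraries. Pfkp was at 2.15, 1.90 and 1.70 FPKM and at 2.02, 1.72 and 1.86 FPKM in the same order. The highest library exceeded the lowest 18.5-fold for Pfkm, 1.54-fold for Pfkl and 1.27-fold for Pfkp.

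**Figure D1:**
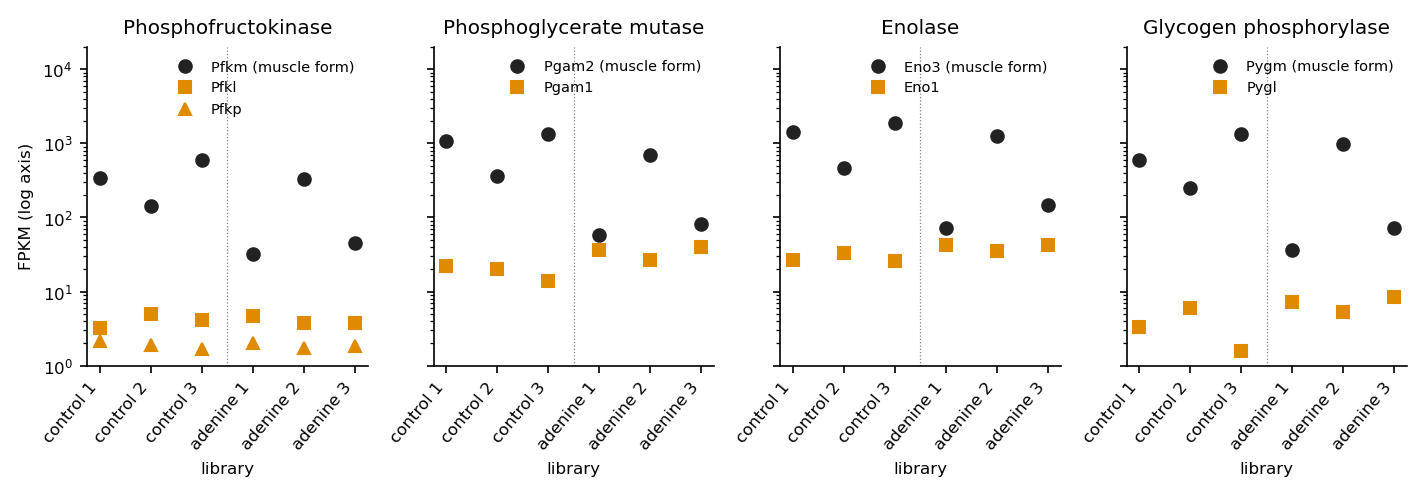
Level of each muscle form (black circles) and its ubiquitous counterparts (orange) in FPKM on a log axis, for each of the 6 libraries at 4 steps; each point is 1 library. The muscle forms are low in adenine 1 and adenine 3 and high in adenine 2, where they lie among the control libraries, while the highest orange point of a gene exceeds its lowest by 1.27-fold (Pfkp) to 5.30-fold (Pygl).

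Pgam2 (ENSMUSG00000020475, chromosome 11, 5751640 to 5753733), the muscle mutase that moves the phosphate group of phosphoglycerate, was at 1087, 362 and 1329 FPKM in the control libraries and at 57.6, 695 and 80.6 FPKM in the adenine libraries. Adenine 1 and adenine 3 were the lowest of the 6, and adenine 2 lay between control 2 and control 1. Pgam1 (ENSMUSG00000011752, chromosome 19, 41900362 to 41907099), which does the same reaction in most tissues, went the other way: 22.0, 20.4 and 13.7 FPKM in the control libraries and 36.7, 26.8 and 39.7 FPKM in the adenine libraries. The lowest adenine value was above the highest control value. Pgam2 thus made up 94.6% to 99.0% of the summed mutase FPKM in the control libraries, 96.3% in adenine 2, but 61.1% in adenine 1 and 67.0% in adenine 3.

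Eno3 (ENSMUSG00000060600, chromosome 11, 70548028 to 70553339), the beta enolase of muscle, was at 1409, 460 and 1909 FPKM in the control libraries and at 72.1, 1254 and 147 FPKM in the adenine libraries. The groups overlapped, with adenine 2 above control 2. Eno1 (ENSMUSG00000063524, chromosome 4, 150321178 to 150333336), the alpha enolase found in most cells, was at 26.6, 32.8 and 25.9 FPKM in the control libraries and 42.1, 35.01 and 43.1 FPKM in the adenine libraries, again without overlap. Eno1 supplied 1.34% to 6.64% of the enolase FPKM in the control libraries and 36.8%, 2.71% and 22.5% in adenine 1, 2 and 3. The neuronal form Eno2 was near 1 FPKM (0.24 to 1.87 FPKM) and under 1% of the step in every library.

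Pygm (ENSMUSG00000032648, chromosome 19, 6434429 to 6448489), which releases glucose phosphate from muscle glycogen, had the widest range of these forms, with 591, 248.6 and 1322 FPKM on the control and 35.9, 970 and 71.4 FPKM in the adenine libraries. The highest library exceeded the lowest 36.9-fold. Pygl (ENSMUSG00000021069, chromosome 12, 70237585 to 70278262), the phosphorylase of liver and of many other cells, was at 3.3, 6.03 and 1.60 FPKM and at 7.29, 5.31 and 8.46 FPKM. Control 2 lay above adenine 2 for Pygl, so the groups overlapped.

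The ratio of muscle to ubiquitous form was taken within each library, after adding 0.1 FPKM to both, which lowers it where the ubiquitous form is scarce. Pfkm exceeded the sum of Pfkl and Pfkp 62.1-, 20.5- and 99.9-fold in the control libraries and 4.72-, 60.3- and 7.81-fold in the adenine libraries. Pgam2 exceeded Pgam1 49.3-, 17.6- and 96.2-fold and 1.57-, 25.9- and 2.03-fold in the same order. Eno3 exceeded Eno1 52.7-, 14.0- and 73.4-fold and 1.71-, 35.7- and 3.40-fold. Pygm exceeded Pygl 174-, 40.6- and 779-fold and 4.87-, 179- and 8.36-fold. The brain phosphorylase Pygb was not part of this ratio. It stood at 28.4, 39.4 and 32.1 CPM in the control libraries, where Pygl had 24.8, 44.4 and 11.5 CPM. In the adenine libraries Pygb had 22.2, 14.8 and 23.1 CPM and Pygl 49.4, 39.2 and 60.4 CPM. At each of the 4 steps adenine 1 had the lowest ratio, adenine 3 the next and control 2 the third lowest, while adenine 2 sat among the control libraries.

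On the log2 scale the mean ratio of Pgam2 to Pgam1 was 5.45 ± 1.23 in the control and 2.12 ± 2.23 in the adenine libraries (SD, n = 3 each), a difference of -3.33 (two-sided exact permutation test, p = 0.2). The differences were -1.95 for Pfkm, -2.68 for Eno3 (exact p = 0.2 for both) and -3.19 for Pygm (exact p = 0.3). Adjusted over the 4 steps these p-values were 0.267, 0.267, 0.267 and 0.3, and the smallest p that 3 libraries against 3 allow is 0.1. The test could therefore not reach 0.05 whatever the values, and the groups overlapped at each step.

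**Figure D2:**
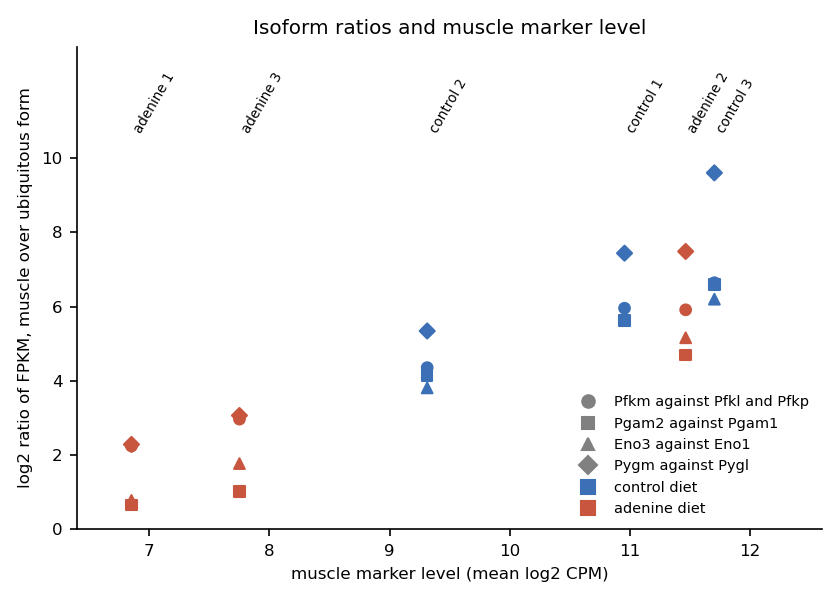
Log2 ratio of muscle to ubiquitous form (FPKM, vertical axis) against the muscle marker level (mean log2 CPM, horizontal axis), with 1 symbol per step and colour for the diet; the library is named above its points. The ratios are lowest in adenine 1 (muscle level 6.85) and highest in control 3 (11.70), and those of adenine 2 lie within the range of the control libraries.

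While the muscle forms ranged 18.5- to 36.9-fold across libraries, their proportions to each other were narrower. Pgam2 was 0.549 to 0.800 times Eno3 in FPKM over the 6 libraries, Pfkm 0.241 to 0.448 times and Pygm 0.419 to 0.774 times, so that the highest ratio was 1.46, 1.86 and 1.85 times the lowest. Phosphoglucomutase (Pgm1), which links glycogen to glycolysis and is a single form here, followed Eno3 more closely still, at 0.0820 to 0.105 times. Against Eno3, aldolase A stood at 2.08, 2.26 and 2.27 times in the control libraries and at 4.27, 2.45 and 3.69 times in the adenine libraries, and the muscle fructose bisphosphatase Fbp2 also lay higher in all 3 adenine libraries (0.0148 to 0.0189 times) than in the control libraries (0.00794 to 0.0102 times). Eno3 was picked as the common denominator, and these ratios were looked at, after the values had been seen, and no test was made of them.

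The stretches of DNA before the start sites of these genes are shown because the muscle and ubiquitous forms differ so widely in level within the same libraries. RefSeq promoter sequences (GRCm38.p6, whose coordinates differ from those of the files, which name no build) were at hand for 33 of the 35 genes, as 51 start sites with 250 bases before and 50 after each. The E-box CAGCTG, a sequence of the kind bound by the muscle factors of the MyoD family, was searched for on both strands, and every CAGCTG also counts as the looser CANNTG. It occurred in 19.6% of the 51 windows and in 16.3% of all 32851 mouse windows of the same length, and the looser CANNTG in 66.7% and 72.3%. Among the 9 genes of the 4 steps, Pygm held 2 matches, Pgam2 held 1 at 125 bases before the start, Eno3 held 1 at base 39 after the start and outside the stretch printed, and the windows of the muscle form Pfkm and of Pfkl, Pfkp, Pgam1, Eno1 and Pygl held none. The 250 bases before the start of Pgam2 (chr11:5803797-5804046, minus strand), Pygm (chr19:6384158-6384407, plus strand), Eno3 (chr11:70656926-70657175, plus strand) and Pgam1 (chr19:41911621-41911870, plus strand) follow, with CAGCTG in capitals.
Pgam2: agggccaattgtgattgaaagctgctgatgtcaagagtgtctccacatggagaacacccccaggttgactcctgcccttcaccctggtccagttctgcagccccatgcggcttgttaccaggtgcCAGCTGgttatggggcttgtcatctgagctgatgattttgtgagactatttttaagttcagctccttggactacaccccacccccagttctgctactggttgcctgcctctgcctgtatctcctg
Pygm: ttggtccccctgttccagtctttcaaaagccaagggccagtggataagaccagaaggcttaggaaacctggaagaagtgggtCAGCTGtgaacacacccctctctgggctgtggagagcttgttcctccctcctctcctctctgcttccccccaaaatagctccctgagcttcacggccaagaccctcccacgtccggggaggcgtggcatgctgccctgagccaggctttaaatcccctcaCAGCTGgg
Eno3: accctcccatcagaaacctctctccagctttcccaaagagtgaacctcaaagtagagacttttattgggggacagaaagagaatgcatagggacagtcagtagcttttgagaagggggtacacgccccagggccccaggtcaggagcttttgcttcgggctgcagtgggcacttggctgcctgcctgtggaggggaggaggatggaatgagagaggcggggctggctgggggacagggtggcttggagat
Pgam1: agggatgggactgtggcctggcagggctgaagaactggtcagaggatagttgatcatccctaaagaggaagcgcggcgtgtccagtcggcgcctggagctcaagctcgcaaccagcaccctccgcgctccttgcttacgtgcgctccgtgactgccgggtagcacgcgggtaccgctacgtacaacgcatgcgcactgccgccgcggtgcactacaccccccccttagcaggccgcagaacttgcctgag

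A further motif, ACGTG, the core of the element bound by hypoxia-inducible factors, was searched for on both strands. It was present in 47.1% of the 51 windows and in 19.6% of all windows. Some of the 51 windows overlap, so that 1 site can count more than once. The same ACGTG lies at -202 and -126 from the starts of overlapping Aldoa windows. ACGTG occurred in windows of 20 genes, among them the muscle forms Pfkm and Pygm and the ubiquitous forms Pgam1 and Pygl. The windows of Pgam2, Eno3, Eno1, Pfkl and Pfkp held none. A loose pattern for the MEF2 motif, with fixed outer bases and any bases at its centre, was also searched for. It was in 1.96% of the 51 windows, which is 1 window of Ldhb, and in 3.69% of all windows. This pattern does not require the A and T bases of a MEF2 core, and variants with other outer bases were not searched for. Which windows hold or lack a MEF2 motif was therefore not tested. TATAAA was in 9.8% of the 51 windows and in 13.6% of all windows. A match of letters in such a window is a description and not a binding site.

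For the comparison of diets each gene was tested on its counts with edgeR's quasi-likelihood test, with adjustment over all 15609 genes. Of the 35 genes 24 had a negative and 11 a positive log2 fold change, against 7805 negative of 15609 over all genes, and their median was -0.59 where that of all genes was -3.85e-07. No member passed at an adjusted p of 0.05 (0% of all genes passed, and the lowest adjusted p among the members was 0.368). At an unadjusted p under 0.05 there were 2 members, or 5.71%, which is less than the 10.7% of all genes. The groups did not overlap for 2 members, Pgam1 and Eno1, both higher on the adenine diet (7.68% of all genes lay wholly above in this way), and for none in the other direction (8.86% of all genes). With the DESeq2 Wald test 1 member passed, Gapdh, or 2.86% against 1.93% of all genes, and the authors' deposited table also called Gapdh alone among the members (1.40% of its genes were called). The log2 fold changes of the members ran from -2.69 for Gapdh to 0.89 for Pygl. DESeq2 had 6 members at an unadjusted p under 0.05, or 17.1%. Over the whole table it had 2175 such genes, and 18691 genes were given an adjusted p. The 2175 can include genes left without an adjusted p, so the share among the 18691 was at most 11.6%.

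**Figure D3:**
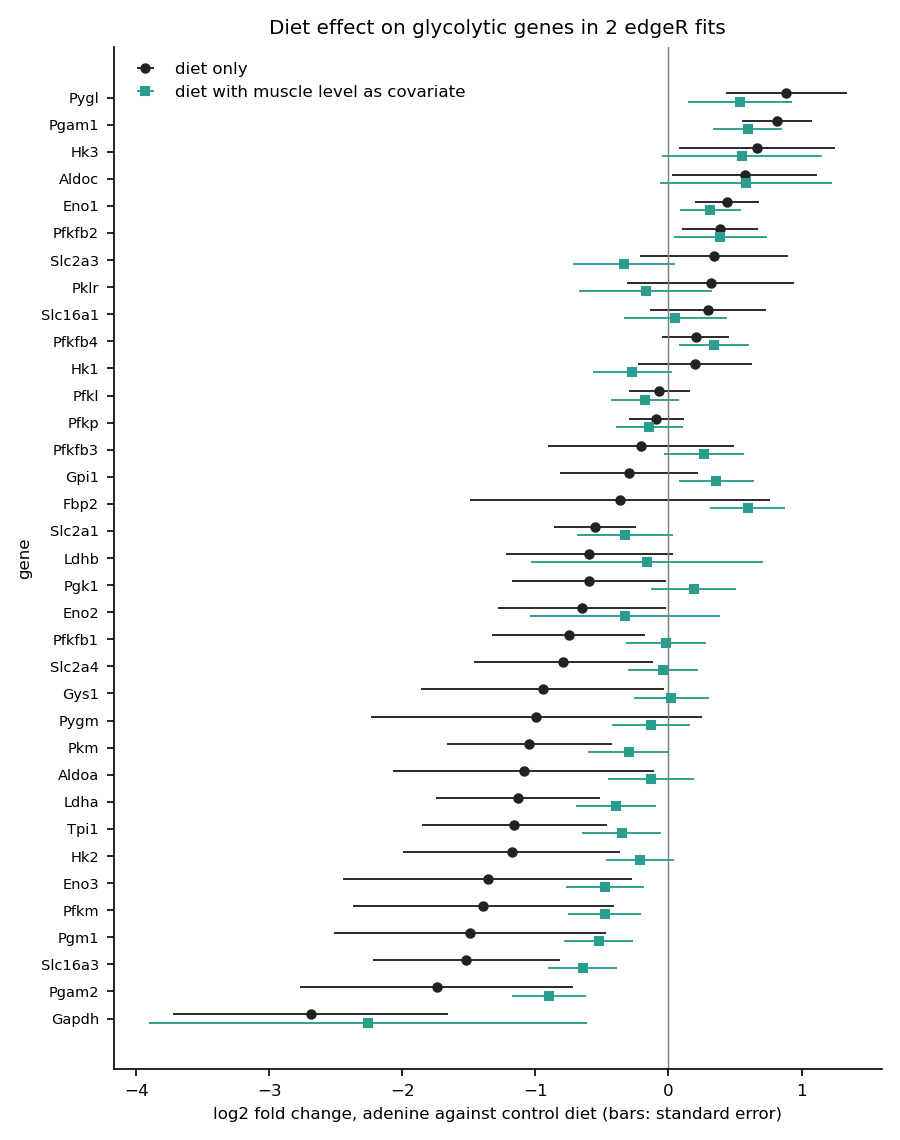
Log2 fold change of each of the 35 genes between the adenine and the control diet, with its standard error as a bar, from edgeR with the diet as the only term (black circles) and with the muscle marker level added as a covariate (green squares). The black bars of muscle forms such as Pygm (SE 1.24) are several times as wide as those of Pfkp (SE 0.21), and most points move toward 0 in the second fit.

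Pgam1 had the smallest p of the members, with 39.6 ± 10.01 CPM in the control and 69.8 ± 12.4 CPM in the adenine libraries (SD, n = 3 each). Its log2 fold change was 0.82 (SE 0.26) by edgeR (unadjusted p = 0.0158, adjusted p = 0.368). Eno1 had 163 ± 22.4 and 221 ± 19.4 CPM (SD, n = 3 each) and a log2 fold change of 0.44 (SE 0.24) by edgeR (adjusted p = 0.544). Osteoclast markers lay higher in the same libraries. The 10 markers of these bone-resorbing cells include Acp5 and Ctsk. They summed to 1669 to 1881 CPM on the control and 4137 to 7211 CPM on the adenine diet. At an unadjusted edgeR p under 0.05, 9 of the 10 were higher, where 10.7% of all genes changed in either direction. Calcr was listed at 0 in at least 1 library. The 10 osteoblast markers all had a positive log2 fold change, but their sums overlapped (14982 to 17341 and 16467 to 42404 CPM). Neutrophil marker sums overlapped too, with 9 of 10 genes positive. The part of these cells in the values of Pgam1 and Eno1 was not tested.

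Of the other ubiquitous forms, Pygl had a log2 fold change of 0.89 (SE 0.46) by edgeR (adjusted p = 0.526). Pfkl and Pfkp had -0.07 and -0.09, with standard errors of 0.23 and 0.21 and adjusted p of 0.914 and 0.867. The muscle forms had larger negative values with far larger errors. Pgam2 had -1.74 (SE 1.03), Pfkm -1.39 (SE 0.98), Eno3 -1.36 (SE 1.09) and Pygm -0.995 (SE 1.24), with edgeR adjusted p of 0.569, 0.611, 0.647 and 0.758. Without adenine 2, the muscle-rich library of that diet, these 4 had -3.84, -3.31, -3.61 and -3.83, and Pgam2 passed (adjusted p = 0.0439), as did 2.03% of all genes in that fit; the adenine libraries that remain are the 2 with the lowest muscle level of all 6, so the fit confounds the diet with the amount of muscle and their parts cannot be told apart.

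Gapdh encodes glyceraldehyde-3-phosphate dehydrogenase, an enzyme of every cell that is widely used as a reference gene. Its row (ENSMUSG00000057666, chromosome 6, 125138678 to 125143430) held 1891, 100 and 197 counts in control 1, 2 and 3 and 101, 101 and 64 counts in adenine 1, 2 and 3. In FPKM these were 30.1, 1.997 and 3.47 and then 2.30, 2.40 and 1.12, so that control 1 stood apart from the other 5 libraries. The enzymes before and after it in the pathway were far more abundant: Tpi1 at 70.0 to 465 FPKM and Pgk1 at 77.2 to 287 FPKM. Gapdh is known for many near-identical processed copies in the mouse genome, and the treatment of reads shared with them is not stated, so its level is uncertain. Of rows named as Gapdh pseudogenes, 3 were in the comparison table, with 14 counts in all. Gapdh had a log2 fold change of -2.69 (SE 1.03) by edgeR (unadjusted p = 0.0347, adjusted p = 0.439), and the authors' deposited table gave -2.68 with an adjusted p of 0.0441. That value rested on control 1: without it edgeR gave -0.53 (adjusted p = 0.844) and the DESeq2 Wald test -0.53 (adjusted p = 0.968).

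At the entry of glucose, the makeup of the carriers differed between libraries. Slc2a4, the insulin-responsive carrier of muscle and fat, was at 62.3, 27.5 and 73.2 FPKM on the control and 15.5, 65.3 and 14.6 FPKM in the adenine libraries. It made up 63.3% to 87.8% of the summed FPKM of the 3 carriers in the control libraries and 48.6%, 88.5% and 53.1% in adenine 1, 2 and 3. Slc2a3, a high-affinity carrier of neurons and blood cells, ran the opposite way, at 2.97, 12.5 and 5.07 FPKM and then 12.5, 4.66 and 10.2 FPKM. Slc2a1, the carrier GLUT1 on which osteoblasts are known to depend, was the lowest of the 3 in 4 of the 6 libraries (2.73 to 5.84 FPKM) and had a log2 fold change of -0.55 (SE 0.31) by edgeR (adjusted p = 0.555).

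The hexokinases, which trap glucose in the cell, traded places between libraries while their sum kept to a narrow range. Hk1, the form of most tissues, and Hk2, the form of muscle and of induced cells, supplied 33.4% and 54.7% in control 1, 64.7% and 18.8% in control 2 and 23.5% and 74.1% in control 3. In adenine 1, 2 and 3 Hk1 supplied 71.5%, 32.1% and 68.2% and Hk2 8.92%, 49.1% and 13.1%. The summed FPKM of the 3 hexokinases was 29.5 to 40.3 in all 6 libraries, a much smaller range than the 2.63 to 29.9 FPKM of Hk2 alone. Hk2 had a log2 fold change of -1.18 (SE 0.81) and Hk1 0.20 (SE 0.43), and neither passed (edgeR adjusted p = 0.607 and 0.864). Hk3, a form of myeloid cells, was at 4.06, 6.34 and 0.95 FPKM in the control libraries and 5.78, 6.85 and 6.05 FPKM in the adenine libraries. The 10 neutrophil markers were also lowest in control 3, at 399 CPM in sum against 1408 to 3999 CPM in the other libraries, and their part in the Hk3 values was not tested.

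**Figure D4:**
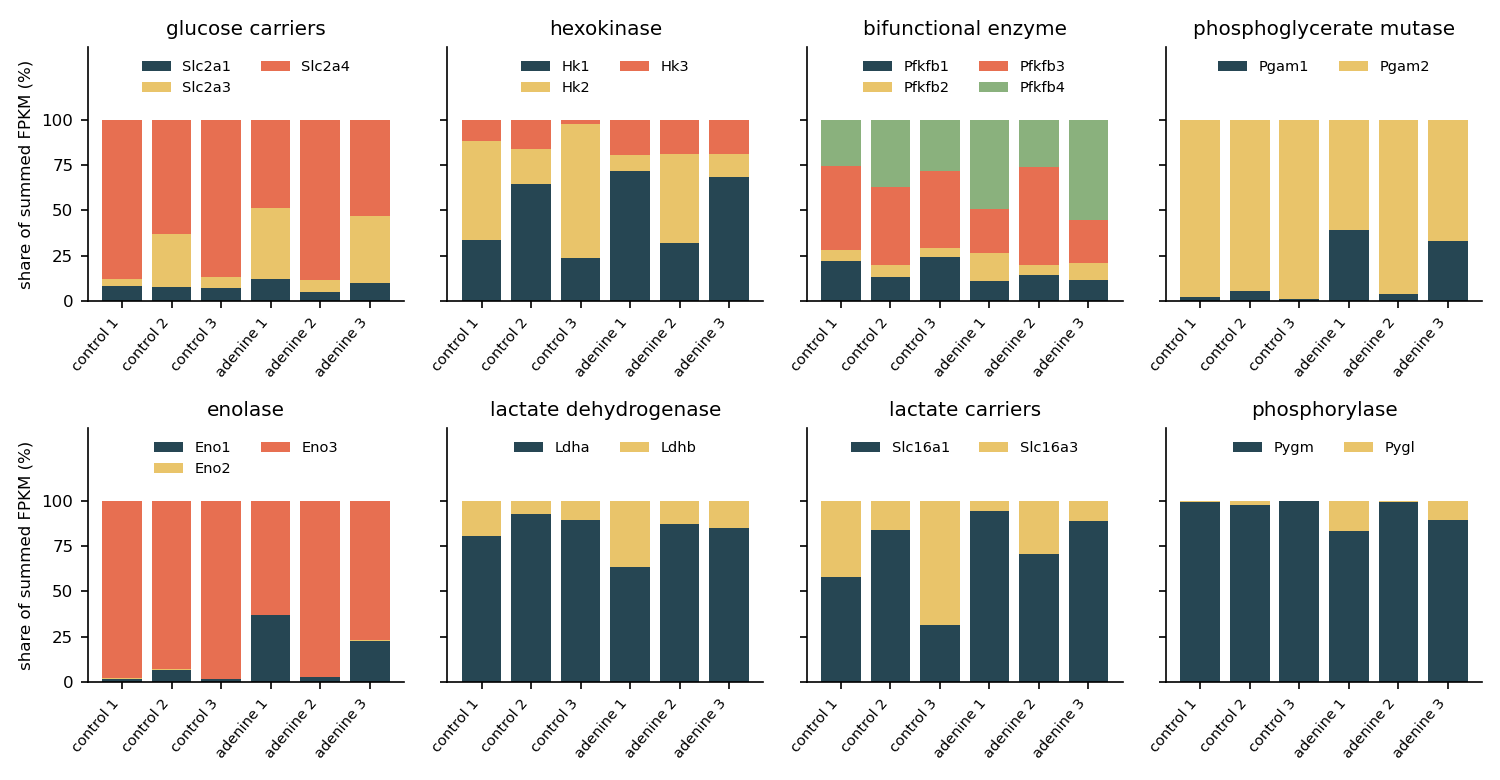
Share of each gene in the summed FPKM of the members at its step (vertical axis, percent), for 8 steps in the 6 libraries. Each bar is 1 library. Control 1, control 3 and adenine 2 resemble each other at most steps, and adenine 1 and adenine 3 show the largest shares of Pgam1, Eno1, Hk1, Slc2a3 and Pygl.

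The bifunctional enzymes Pfkfb1 to Pfkfb4 make and break the sugar phosphate that switches phosphofructokinase on. Pfkfb3, an inducible form that favours glycolysis, was at 9.96, 9.28 and 13.8 FPKM in the control libraries and at 3.98, 21.2 and 3.64 FPKM in the adenine libraries, the highest value being that of adenine 2. Its log2 fold change was -0.21 with all libraries (edgeR adjusted p = 0.916) and 0.27 with the muscle marker level as a covariate. Without adenine 2 it was -1.61 and passed (edgeR adjusted p = 0.0436), in a fit that called 2.03% of all genes and kept only the adenine libraries of lowest muscle level, so that the diet and the amount of muscle cannot be told apart there either. Pfkfb4 was more even, at 5.48 to 10.3 FPKM, and provided the largest share of the 4 in adenine 1 (49.4%) and adenine 3 (55.6%). Pfkfb1, a form of liver and muscle, had a log2 fold change of -0.75 (SE 0.58) and Pfkfb2, known from heart, 0.39 (SE 0.29), and neither passed (edgeR adjusted p = 0.634 and 0.624). Fbp2, which runs the phosphofructokinase step backwards in muscle, ranged 20.5-fold, from 1.15 FPKM in adenine 1 to 23.7 FPKM in adenine 2.

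In the trunk of the pathway, genes that muscle shares with other tissues mostly followed the muscle forms, over a narrower range. Aldoa, the aldolase of muscle and most other tissues, was the most abundant member at 2927, 1040 and 4335 FPKM on the control and 308, 3068 and 542 FPKM in the adenine libraries, and Aldoc, the form of brain, was under 0.35% of the step in every library. The second row named Aldoa, of 799 bases, held 34 to 872 counts against 9521 to 173115 in the row kept. Tpi1, Pgk1, Pkm and Gpi1, enzymes of most or all cells, ranged 6.65-, 3.71-, 5.80- and 2.70-fold, less than Aldoa (14.1-fold) or Pgm1 (26.3-fold). Their log2 fold changes were -1.16 (SE 0.70), -0.60 (SE 0.58), -1.05 (SE 0.62) and -0.30 (SE 0.52), with edgeR adjusted p from 0.569 to 0.829. Pklr, the pyruvate kinase of liver and red cells, was at 3.28, 10.4 and 1.64 FPKM and then 7.85, 4.37 and 7.69 FPKM. Red cell markers, 9 genes in the table led by haemoglobins, summed to 44494, 73360 and 10041 CPM and then 73376, 54324 and 48378 CPM, with the lowest sum in control 3 for both, and their part in the Pklr values was not tested.

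At the lactate end, Ldha, which turns pyruvate into lactate, was at 476, 240 and 646 FPKM on the control and 109, 375 and 146 FPKM in the adenine libraries. Adenine 1 and adenine 3 were the lowest, and adenine 2 lay above control 2 (log2 fold change -1.13, SE 0.62, edgeR adjusted p = 0.544). Ldhb, the form of heart, made up 7.17% to 19.4% of the pair in the control and 12.8% to 36.6% in the adenine libraries. The exporter Slc16a3, the lactate carrier MCT4 of fast muscle and other glycolytic cells, was at 28.9, 11.6 and 39.6 FPKM and then 3.84, 18.8 and 5.61 FPKM, a log2 fold change of -1.52 (SE 0.70) by edgeR (adjusted p = 0.495). Slc16a1, the carrier MCT1 of red cells and many tissues, was at 40.05, 59.5 and 18.1 FPKM and then 63.2, 44.6 and 43.5 FPKM. The sum of both carriers stayed within 49.1 to 71.1 FPKM, while the share of Slc16a3 ran from 5.73% in adenine 1 to 68.6% in control 3. Of the glycogen enzymes besides the phosphorylases, Gys1, the glycogen synthase of muscle and most tissues, ranged from 5.03 FPKM in adenine 1 to 50.3 FPKM in control 3 (log2 fold change -0.95, SE 0.91), and Pgm1 from 7.48 to 197 FPKM in the same libraries (-1.49, SE 1.02).

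**Figure D5:**
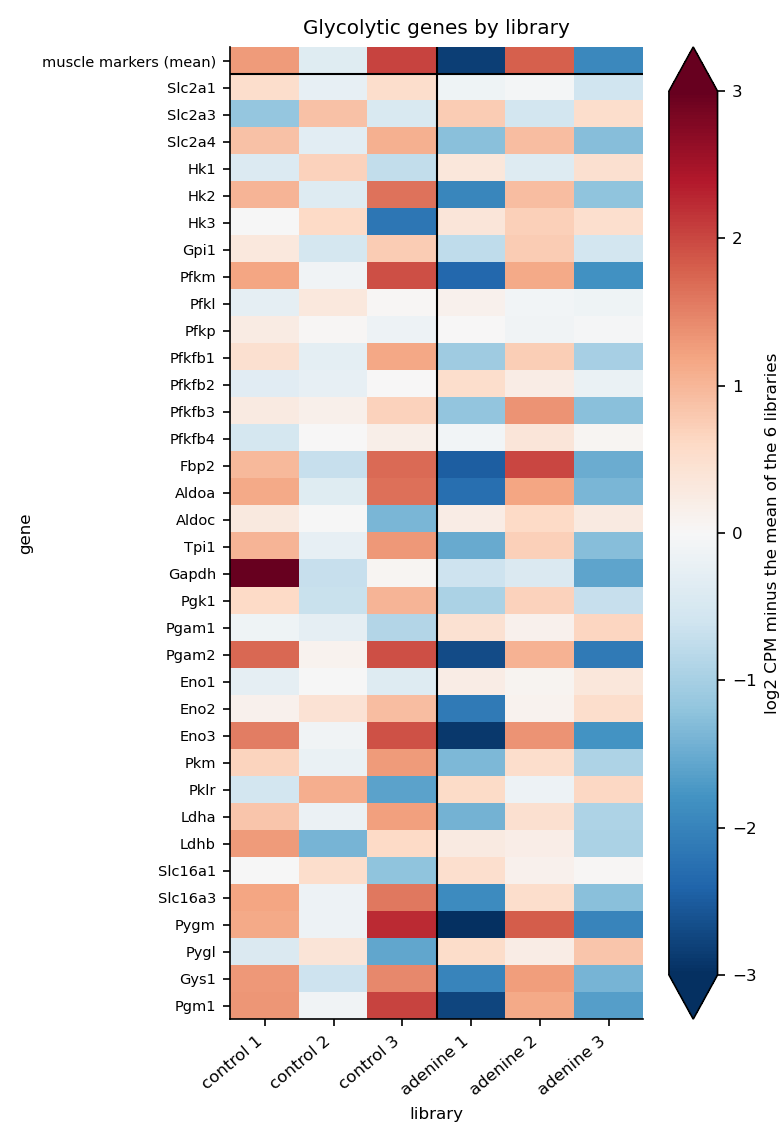
Level of the 35 genes in the 6 libraries as log2 CPM minus the mean of the 6 (colour), in the order of the pathway, with the mean muscle marker level in the top row; the colour scale ends at 3 in either direction. In 20 of the 35 rows the 3 reddest libraries are control 1, control 3 and adenine 2; Slc2a3, Hk1, Hk3, Pgam1, Eno1, Pklr, Slc16a1 and Pygl are among the other 15.

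For 20 of the 35 genes (57.1%) the 3 highest libraries were control 1, control 3 and adenine 2, the 3 with the highest muscle marker level, as they were for 17.4% of all genes tested. All 20 had a negative log2 fold change, which follows in part from 2 of these 3 libraries being on the control diet. Among the 15 others, 11 had a positive log2 fold change. Gpi1, Pfkfb1, Aldoa, Pgk1 and Pygm had all 6 libraries in the order of the muscle level.

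With the muscle marker level as a covariate in the edgeR fit, the members came closer together. Their median log2 fold change was -0.14 (all genes -0.03), with 13 positive and 22 negative, and the size of the change was smaller than without the covariate for 26 of the 35. The standard errors of the 4 muscle forms were 0.28 to 0.30 in this fit, against 0.98 to 1.24 with the diet alone. Pygm then had -0.13, Eno3 -0.48, Pfkm -0.48 and Pgam2 -0.90. At an unadjusted edgeR p under 0.05 were Pgam2, Slc16a3 (log2 fold change -0.64) and Pgam1 (0.60), which is 8.57% of the members against 8.44% of all genes. None of them passed the adjustment over all genes, where the lowest edgeR adjusted p among the members was 0.357. The sign of 8 members differed between the 2 fits: Slc2a3, Hk1 and Pklr were positive with the diet alone and negative with the covariate, and Gpi1, Pfkfb3, Fbp2, Pgk1 and Gys1 the reverse.

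Around these members, 62 further genes of glucose metabolism were listed (glycogen regulators, pyruvate entry into mitochondria, the pentose phosphate branch, gluconeogenesis, remaining carriers and the hypoxia-inducible factors), of which 60 were in the table and 55 were tested. None passed over all genes by edgeR, 24 had a positive and 31 a negative log2 fold change with a median of -0.11, and 4 were higher and 8 lower at an unadjusted p under 0.05, together 21.8% of the 55 against 10.7% of all genes. The groups did not overlap for 3 genes that were higher on the adenine diet (Fbp1, Slc16a7 and Slc16a8; 5.45% against 7.68% of all genes) and for 6 that were lower (among them Epas1, Pygb, G6pc3 and Pgm5; 10.9% against 8.86%). Slc16a8 was named after its values were seen. Epas1, a hypoxia-inducible transcription factor abundant in vessels, was at 295, 264 and 376 CPM on the control and 131, 201 and 117 CPM on the adenine diet (log2 fold change -1.05, SE 0.31, edgeR adjusted p = 0.331). Markers of smooth muscle, 6 genes that include Acta2 and Myh11, also lay lower in sum, at 789, 904 and 838 CPM and then 381, 378 and 153 CPM, with a negative log2 fold change for all 6 and none at 0, and their part in the Epas1 values was not tested. Slc16a7, the lactate and pyruvate carrier MCT2, was at 6.43 to 13.6 CPM on the control and 16.1 to 25.9 CPM on the adenine diet. Slc16a7, the brain phosphorylase Pygb and G6pc3, a glucose phosphatase of most tissues, had log2 fold changes of 1.13, -0.73 and -0.66 (edgeR adjusted p = 0.393, 0.405 and 0.405). Pgm5, a relative of phosphoglucomutase in muscle cell junctions, had -2.02 (SE 0.71).

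Fbp1, the fructose bisphosphatase of liver and kidney, was at 1.505, 3.17 and 2.73 CPM on the control and 62.4, 10.1 and 3.23 CPM on the adenine diet (log2 fold change 3.35, SE 1.06, edgeR adjusted p = 0.368; DESeq2 adjusted p = 0.00639). It passed with DESeq2 and not with edgeR. Kidney tubule markers, 12 genes, summed to 266, 72.7 and 56.7 CPM and then 2051, 844 and 115 CPM in the same order, all 12 with a positive log2 fold change, and Slc22a6 and Slc5a2 were listed at 0 in at least 1 library. Both Fbp1 and the kidney markers were highest in adenine 1, and the part of kidney RNA in the Fbp1 values was not tested.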

How the data were processed

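The assay was polyA RNA sequencing of tibia cortex; the labels' protocols describe a directional and a non-directional library without saying which was made. Software listed in the submitters' processing notes, with no role, comprised edgeR 3.22.5, DESeq2, featureCounts 1.5.0-p3 and HISAT2 2.0.5. For build, annotation and strand setting the sources used here give nothing. The authors deposited raw counts per gene, a normalized signal (not used for tests), FPKM, and their own log2 fold changes and p-values. Their FPKM were equal in both tables within 4.97e-06.

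Genes were tested with edgeR 4.0.16 (R 4.3.3; TMM, robust quasi-likelihood F test, two-sided) on the deposited counts of 15609 genes kept by filterByExpr (minimum count 10), with Benjamini-Hochberg adjustment and a threshold of 0.05. A standard error is the absolute log2 fold change over the square root of F. CPM are TMM-scaled. Isoform ratios used FPKM with a pseudocount of 0.1 and exact permutation tests over libraries. The fit was also run on simulated counts with less scatter between libraries than these data have, which does not show how it performs here. The members, marker lists and tests were chosen with earlier results of these data known. Full values were given for the 4 muscle forms and their 5 counterparts and for members at an unadjusted p under 0.05 or called by DESeq2 1.42.0 or in the deposited comparison. Alternatives are listed in the closing section.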

Additional observations from a re-analysis of the deposited data

How the results depend on the processing

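The count of genes passing over the whole table was 0 with edgeR (1671 at an unadjusted p under 0.05). It was 361 with the DESeq2 Wald test, 211 with that test without control 1 (added after seeing the data), 66 without a filter on low counts, and 1 each with limma-trend (limma 3.58.1) on log2(FPKM + 1) and with muscle level added to the fit. With 1 library left out it ran from 0 to 334, the highest without adenine 2. The count of members passing was 0, was 1 with the DESeq2 Wald test, and ran from 0 to 2 with 1 library left out (Pgam2 and Pfkfb3 without adenine 2).

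Adding muscle level to the fit, the log2 fold change reversed for Slc2a3 (-0.34), Hk1 (-0.27), Gpi1 (0.36), Pfkfb3 (0.27), Fbp2 (0.59), Pgk1 (0.19), Pklr (-0.17) and Gys1 (0.022), and for Pfkp (0.021) with the DESeq2 Wald test without control 1; the cause was not tested. With 1 library left out the range crossed 0 for Hk1 (-0.042 to 0.74), Gpi1 (-0.94 to 0.025), Pfkl (-0.20 to 0.087), Pfkp (-0.18 to 0.026), Pfkfb3 (-1.61 to 0.18), Fbp2 (-2.86 to 0.22), Pklr (-0.083 to 1.36) and Slc16a1 (-0.036 to 0.72). The other members kept their sign under these settings. The isoform ratios kept theirs under each alternative run; with 1 library left out the log2 differences were -3.05 to -1.21 (Pfkm), -4.61 to -2.59 (Pgam2), -3.97 to -1.78 (Eno3) and -4.79 to -2.11 (Pygm).

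Same-numbered libraries deviated from their group means with correlations of -0.0394, -0.452 and -0.165. With 3 libraries per diet these values cannot decide whether the numbers pair the libraries, and the labels state no pairing. With the replicate block 0 genes and 0 members passed (986 genes at an unadjusted p under 0.05).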
